A study of Mus musculus with 17 samples.

Results

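The regions of accessible chromatin common to the kidneys of healthy mice were described here: 18758 of the 102398 merged regions (18.3%) found in the 5 wild-type C57BL/6 mice of the Ctrl group. Kidney cells of 17 male mice, 20000 per library, had been profiled by ATAC-seq, which sequences DNA open to a transposase, and the files list the summits of each library, the single bases at which accessibility peaked. To find the shared regions, every summit of the 5 Ctrl lists was extended by 250 bp to each side, overlapping stretches were merged, and regions with a summit in all 5 mice were kept. The strength of a region was the percentile of its highest summit score within each mouse's own list, averaged over the 5 mice, so that 100 marks the highest score of a list. Ctrl mice carried no leptin receptor mutation and received no drug, and like the others they entered the study at 8 weeks of age and were studied 6 weeks later. The db/db mice, used only for a comparison at the end, are of the strain BKS.Cg-Dock7m +/+ Leprdb/J, in which the Lepr mutation causes diabetes. They formed the Case group (n = 6) and the Dapa group (n = 6), which was given 1 mg/kg dapagliflozin daily over these 6 weeks. Dapagliflozin inhibits SGLT2, the glucose transporter of the proximal tubule.

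In ATAC-seq a transposase cuts DNA that is not wrapped in nucleosomes or covered by packed chromatin. Such open DNA lies mostly at promoters, where transcription starts, and at enhancers, which lie farther away and are more particular to a cell type. A kidney holds many cell types, with the glomerulus and its podocytes at the head of each nephron, followed by the proximal tubule, the thick ascending limb, the distal convoluted tubule and the collecting duct with its principal and intercalated cells. Proximal tubule cells make up most of the kidney cortex.

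The sequences that the results turn on are given here from the mm10 genome as held by RefSeq. The first set comes from the 5 strongest promoters of single-copy sequence (defined below), chosen after their values had been seen, and 2 promoters for comparison. Each is written 5′ to 3′ on the strand of its gene, and capitals mark the letters CCAAT or their reverse ATTGG, the core of the element bound by the transcription factor NFY.
Cggbp1, chr16:64851814-64851933: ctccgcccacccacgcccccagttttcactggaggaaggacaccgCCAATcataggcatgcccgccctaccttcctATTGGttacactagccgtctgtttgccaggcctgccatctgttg
Scai, chr2:39190771-39190890: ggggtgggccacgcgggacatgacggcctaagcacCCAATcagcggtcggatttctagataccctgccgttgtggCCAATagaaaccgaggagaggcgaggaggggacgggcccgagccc
Hmgb2, chr8:57511741-57511860: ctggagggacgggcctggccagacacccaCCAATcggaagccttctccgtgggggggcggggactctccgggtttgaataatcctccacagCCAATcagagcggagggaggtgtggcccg
Msantd4, chr9:4376431-4376550: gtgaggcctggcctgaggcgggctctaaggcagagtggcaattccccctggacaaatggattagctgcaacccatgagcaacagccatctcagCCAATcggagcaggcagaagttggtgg
Bmt2, chr6:13677967-13678082: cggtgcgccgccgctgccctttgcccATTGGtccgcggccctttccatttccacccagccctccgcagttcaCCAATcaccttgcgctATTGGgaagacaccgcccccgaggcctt
Adgrl1, a weak promoter, chr8:83899985-83900104: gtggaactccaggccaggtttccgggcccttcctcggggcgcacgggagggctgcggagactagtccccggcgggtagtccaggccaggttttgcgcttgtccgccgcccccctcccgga
Slc6a19, the strongest promoter of the proximal tubule genes, chr13:73692637-73692729: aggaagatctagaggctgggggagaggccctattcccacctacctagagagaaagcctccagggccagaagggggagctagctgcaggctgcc

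All 5 of the strong promoters held the marked letters within these stretches, and those of Adgrl1 and Slc6a19 held none. The stretches were not all cut in the same way around the summit. That of Slc6a19 has 93 bases and leaves out its summit at chr13:73692629, while that of Cggbp1 has 120 bases and holds its summit. How the stretches were cut can therefore set part of this contrast, and nothing is concluded from it. Adgrl1 was picked by hand from the weak end, after its values had been seen, and is a single example: of the weakest decile of promoters 16.0% held CCAAT.

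The second set comes from regions away from promoters. They are the strongest such regions whose nearest coding genes are the proximal tubule genes Slc4a4 and Fbp1, on the plus strand of the genome.
Slc4a4, chr5:88929847-88929947: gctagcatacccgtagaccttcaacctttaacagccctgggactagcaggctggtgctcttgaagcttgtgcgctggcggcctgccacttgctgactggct
Fbp1, chr13:62908194-62908294: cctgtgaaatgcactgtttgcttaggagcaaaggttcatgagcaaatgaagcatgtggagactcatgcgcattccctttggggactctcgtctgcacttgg

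The last sequence is an example of the repeated sequence among the strongest regions. It lies in the 3rd strongest region and was found letter for letter in the mitochondrial genome at chrM:15754-15862 and, on the minus strand, in the 10th strongest region at chr6:9889947-9890055.
Mitochondrial copy, chr12:97061507-97061615: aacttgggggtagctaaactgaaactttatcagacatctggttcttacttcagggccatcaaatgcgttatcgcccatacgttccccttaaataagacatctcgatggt

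The Ctrl lists held 43012, 56659, 47372, 42776 and 37402 summits in Ctrl 1 to Ctrl 5. The shared regions took 45%, 34.9%, 40.9%, 46.4% and 51.7% of them (mean 43.8 ± 6.29%, SD, n = 5), with the lowest share in the longest list and the highest in the shortest. They had a median width of 596 bp and covered 12.8 Mb. No pair of the 10 pairs of Ctrl lists was identical. Sequencing depth was unknown, and the median score of a list ran from 5.25 in Ctrl 4 to 6.40 in Ctrl 1.

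The regions of all 5 mice differed in kind from those of fewer mice. A promoter here is a region with its summit at most 1 kb from a transcription start. Of the shared regions 56.8% were promoters, against 27.8% of the 6396 regions found in 4 mice and 10.5% of the 58805 found in 1 mouse. Taken over the percentiles of single mice, before averaging, the median was 78.2 in shared regions and 17.8 in those of 1 mouse. Of all merged regions at coding promoters 53.9% were shared, against 11.6% of those in introns and 8.52% of those between genes.

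The ranking was led by repeated sequence rather than by kidney genes. A region was called single-copy where every stretch of 31 bases in the 201 bases around its summit occurred once in the genome, and multi-copy otherwise. Of the 10 strongest regions 9 were multi-copy, as were 49 of the top 50, 125 of the top 200 (62.5%) and 2405 of all 18758 (12.8%). All 20 strongest regions aligned to at least 1 other place in the genome. Repeated sequence was frequent at the weak end too. Of 10 groups of about equal size by strength, the weakest was 22.5% multi-copy and the strongest 16.5%.

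**Figure D1:**
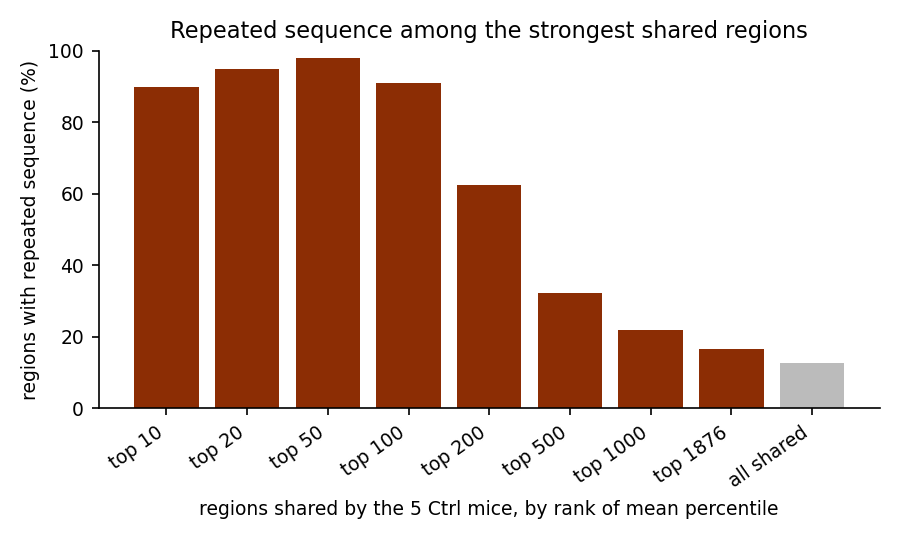
Percentage of regions with repeated (multi-copy) sequence, by rank of mean percentile among the regions shared by the 5 Ctrl mice, with the grey bar for all shared regions. The share was 98.0% in the top 50 and 12.8% over all shared regions.

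The strongest region of every mouse except Ctrl 5 lay at chr9:35305445, in an intron of the long noncoding RNA gene Gm33838 and 2154 bp from its start. Its scores were 372, 368, 372, 373 and 367 in Ctrl 1 to Ctrl 5, and some of its sequence occurred up to 211 times in the genome. The next lay between genes at chr12:3109996, with scores of 341, 352, 345, 333 and 369, also of repeated sequence. The third, at chr12:97061545 and 40919 bp from the gene Gm47397, was a copy of mitochondrial DNA over 100% of its window. An intron of Chl1, a neural cell adhesion gene, held the fourth at chr6:103649169, and the fifth lay between genes at chr3:5860642. These 5 were also the strongest intronic or intergenic regions.

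The sixth, at chr16:11144123, was the promoter of the microRNA gene Gm23935 inside Zc3h7a. Single-copy by the 31-base rule, the seventh at chr11:109011804 lay 68183 bp from the nearest coding start, that of Axin2. It had scores of 241, 216, 230, 225 and 226, and part of it still aligned to chromosome 17 with 82.4% identity over 165 bases. Introns of Cdk8 (chr5:146261117) and Cmss1 (chr16:57391575) held the eighth and the ninth. The tenth, at chr6:9890047, lay between genes and was 99.0% like mitochondrial DNA. Reads from several places in the genome or from mitochondria can be placed at such regions, and their part in these scores was not tested.

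The weakest shared region was the promoter of H2-D1, a classical major histocompatibility complex class I gene, at chr17:35263710 and 980 bp from its start. Its percentiles were 2.21, 1.10, 9.86, 21.9 and 27.7 in Ctrl 1 to Ctrl 5 (mean 12.6 ± 11.9, SD, n = 5), low in every mouse. The other 9 had mean percentiles from 16.6 to 18.7, and 1 of them was a promoter, that of Gm1604a (chr17:7025520). Introns of H60b (chr10:22192820) and Cacna2d3 (chr14:29002299) held the second weakest and the seventh weakest. The rest lay between genes, nearest to Gm18078 (chr14:16971400), Gm9844 (chr7:24863688), Slc25a1 (chr16:17945400), 1700044K03Rik (chr18:49485709), Mgat5 (chr1:127164944) and Gm44301 (chr2:172205257). Of the 10 weakest regions, only those nearest to Slc25a1 and Mgat5 were single-copy. The others, that of H2-D1 included, were multi-copy. Mean scores of the 10 weakest regions ran from 3.32 to 3.72, whereas those of the 10 strongest regions ran from 212 to 371.

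Because repeated sequence crowded the top, genomic classes were described over the 16353 single-copy regions, a choice made after the values had been seen. They were split by strength into deciles, 10 groups of about equal size. In the strongest decile, 1570 of 1636 regions were promoters (96.0%), 25 were intronic (1.53%) and 36 intergenic (2.20%). In the weakest decile 624 of 1635 were promoters (38.2%), 573 intronic (35%) and 357 intergenic (21.8%). With the multi-copy regions kept, the promoter share was 86.9% in the strongest decile and 33.3% in the weakest. Those deciles of all shared regions held 310 multi-copy regions in the strongest and 421 in the weakest. The promoter share was higher in each decile than in the one below it.

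**Figure D2:**
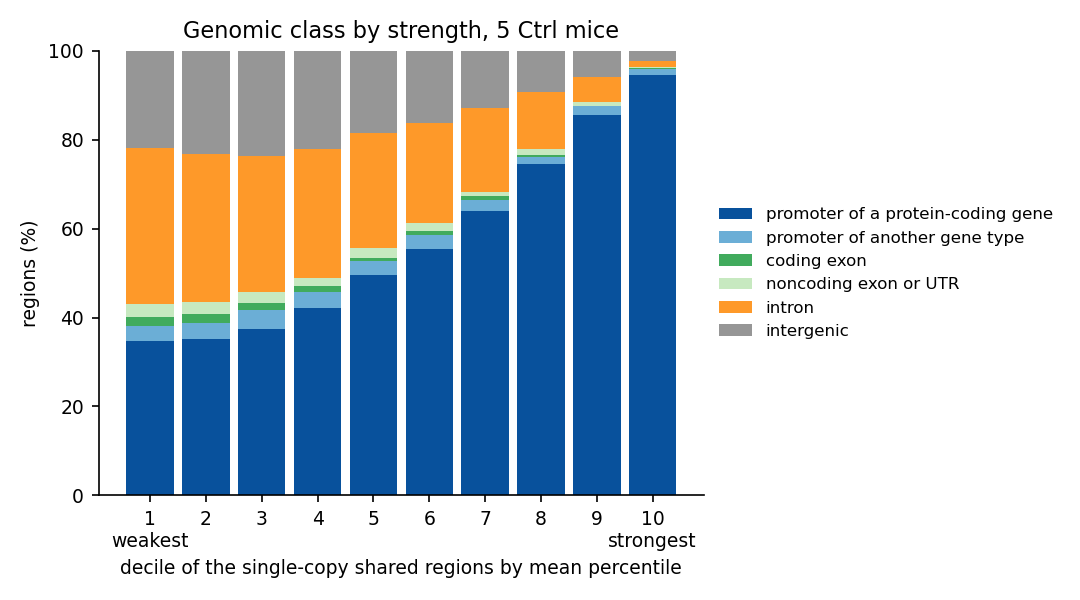
Genomic class of the single-copy shared regions in deciles of mean percentile, from weakest to strongest, as a percentage of the regions of each decile. Promoters of all kinds (both blues) make up 96.0% of the strongest decile and 38.2% of the weakest, where introns (orange) make up 35% and intergenic sequence (grey) 21.8%.

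Promoters of coding genes had a median percentile of 83.2 (n = 9374 regions), with medians in single mice from 82.1 to 87.2. Introns had 67.4 (n = 3517, mice from 63.3 to 77.1) and intergenic regions 68.0 (n = 2548, mice from 65.8 to 77.1). The ranges over mice of promoters and of either distal class did not overlap. Coding exons had a median of 64.2 and promoters of other gene types, mostly noncoding RNA genes, 70.2. The strongest positions lay just off the start: regions 100 to 250 bp from a transcription start had a median of 87.2, those within 100 bp 83.2 and those 500 to 1000 bp away 68.5. Promoters rich in CpG, the dinucleotide at which mammalian DNA is methylated, had a median of 84.7 (observed over expected CpG above 0.6, n = 7618) and the others 75.2 (n = 2224).

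The strongest single-copy promoter was that of Cggbp1, which encodes a protein that binds CGG repeats, at chr16:64851876. Its scores were 69.6, 77.4, 68.6, 48.8 and 58.0 in Ctrl 1 to Ctrl 5, all within the top 1 in 100 of each list (mean percentile 99.8). After it came Scai, a regulator of cell migration, Hmgb2, a chromatin protein, Msantd4, Bmt2, a sensor of the mTORC1 pathway, Ppp2r1a, a subunit of protein phosphatase 2A, and Pdcd10, all with mean percentiles of 99.7. None of these belongs to a gene list of the kidney used here, and none of the 10 strongest single-copy promoters aligned elsewhere in the genome. Apart from predicted genes with a Gm or Rik name and a ribosomal pseudogene, the weakest single-copy promoters were those of Cxcr4, a chemokine receptor of leukocytes (mean percentile 20.7 ± 12.5, SD, n = 5), Adgrl1, an adhesion receptor of neurons (20.8 ± 24.2), and Asap1 (21.5 ± 6.19).

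Sequence letters differed along the ranking of promoters. The windows of 201 bases of single-copy coding promoters were split into deciles of strength, and 16 motifs were searched as plain letters on both strands. CCAAT was found in 61.3% of the strongest decile and 16.0% of the weakest, against 34.4% of all 9374 such windows and 26.5% of all merged Ctrl regions. GGGCGG, the core bound by SP and KLF factors, was found in 77.5% of the strongest decile, 52.4% of the weakest and 66.6% of all. Windows without CCAAT had a median percentile of 79.7 (n = 6148), those with 1 match 86.5 (n = 1953), those with 2 matches 92.7 (n = 869) and those with 3 or more 93.8 (n = 404). The order held in each mouse, from 80.8 to 93.5 in Ctrl 1, from 84.5 to 95.3 in Ctrl 2, from 82.2 to 94.4 in Ctrl 3, from 80.6 to 94.9 in Ctrl 4 and from 77.8 to 93.4 in Ctrl 5. Across the deciles the median summit lay at −14 bp from the start in the weakest and at −72 bp in the strongest (minus meaning upstream), and the median CCAAT at −38 and −79 bp. GC content did not follow strength, with a median of 65.7% in the weakest decile and 64.7% in the strongest. These are counts of letters in a window, which do not show that a factor was bound.

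**Figure D3:**
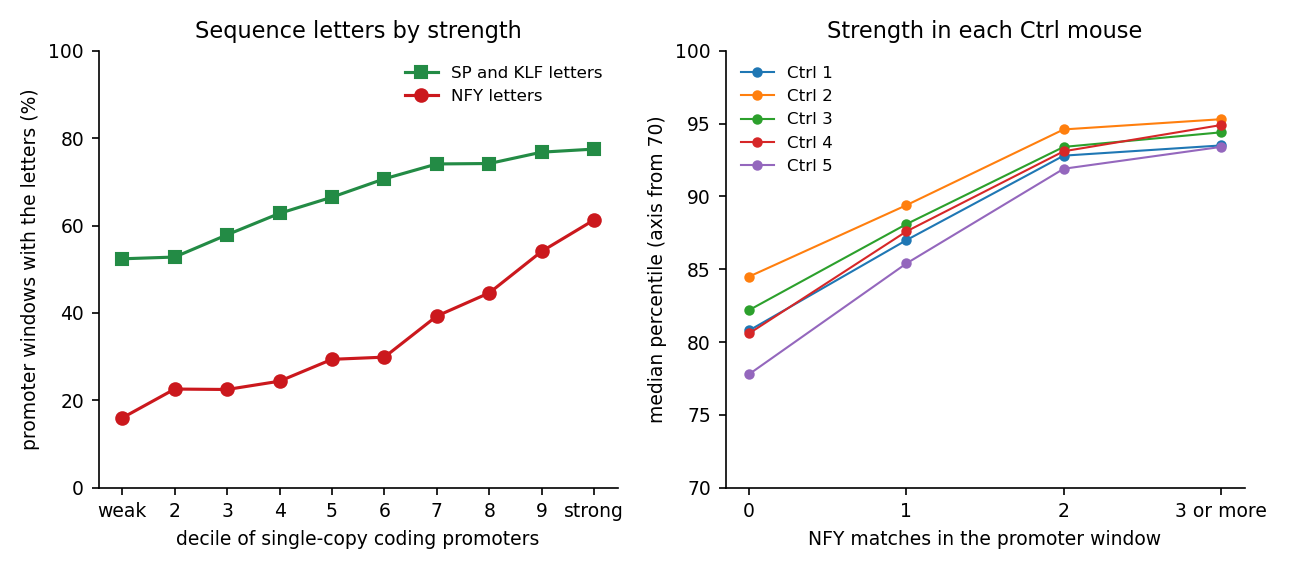
Left, percentage of single-copy coding promoter windows of 201 bases that hold the NFY letters CCAAT (red) or the SP and KLF letters GGGCGG (green), by decile of strength. Right, median percentile of promoters in each Ctrl mouse (1 line per mouse) by the number of NFY matches, on an axis that starts at 70. The median is higher with each further match in every mouse.

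Other motifs were compared between promoters and distal regions. Among the 6511 single-copy distal regions, meaning all those that were not promoters, the AP-1 letters TGANTCA were found in 9.32%, against 2.95% of the 9842 promoters. The letters of HNF4, a factor of proximal tubule and liver (CAAAGTCCA), were found in 3.98% of distal regions and 0.752% of promoters, with 3.68% of the strongest and 3.84% of the weakest distal decile. Of all merged Ctrl regions, 6.01% held the AP-1 letters and 1.23% those of HNF4. ETS letters (CCGGAAGT) went the other way, with 7.12% of promoters and 0.522% of distal regions. CTCF letters (CCNCNAG and NNGGC joined) were about as frequent in both, at 3.65% and 3.72%.

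The remaining motifs included NRF1 (GCGCA followed by TGCGC), CREB and ATF (TGACGTCA), YY1 (AAGATGGC), PPAR and RXR (AGGTCA at either side of any 1 base), ESRR (TCAAGGTCA), GRHL (AACCGGTT), TFCP2L1 (CCAG at either side of any 6 bases), CEBP (TTGCGCAA) and the E-box (CACGTG). In promoters they were found in 1.68%, 3.08%, 3.6%, 0.0102%, 0.183%, 0.163%, 2.86%, 0.213% and 8.46% of windows, in this order. In distal regions the shares were 0.123%, 0.507%, 0.753%, 0%, 0.399%, 0.169%, 4.29%, 0.138% and 6.17%, and in all merged Ctrl regions 0.223%, 0.579%, 2.38%, 0.0264%, 0.386%, 0.152%, 3.08%, 0.0674% and 4.05%. By strength, the CREB and ATF letters were in 1.38% of the strongest and 0.154% of the weakest distal decile, 9 and 1 windows. GGGCGG was in 20.4% of the strongest and 8.76% of the weakest distal decile, 133 and 57 windows. The motifs of PPAR and RXR and of ESRR share the letters AGGTCA, and each motif was counted whatever the others did.

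The question of which nephron segments the shared regions represent was addressed with marker genes, and among the segments the proximal tubule list had the highest share. Over all 21938 coding genes, 47.1% had a shared promoter region. Of the proximal tubule list 17 of 24 genes did (70.8%), of the distal convoluted tubule list 6 of 12, of the podocyte list 3 of 12 and of the principal cell list 2 of 12. Of the intercalated cell list 1 of 12 genes had one (8.33%, or 16.7% without Ctrl 5), and of the thick ascending limb list 1 of 12 (8.33%, or 16.7% without Ctrl 1). The list of 16 leukocyte genes had none (18.8%, beside 11411 of all 21938 coding genes, when searched from 2 kb upstream to gene end). Of these 16 genes, 13 had no summit within 1 kb of a start in any mouse. Endothelium and the group of stroma, mesangium and smooth muscle had 2 of 14 genes each, and genes of other organs, such as brain, muscle and pancreas, 4 of 24. Of the housekeeping genes 19 of 20 had one. Over the alternatives described at the end, the proximal tubule list ran from 54.2% to 87.5%. The distal convoluted tubule list ran from 33.3% to 83.3% and the podocyte list from 16.7% to 50%. In a bulk library, fewer cells of a type and less open chromatin per cell cannot be told apart.

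**Figure D4:**
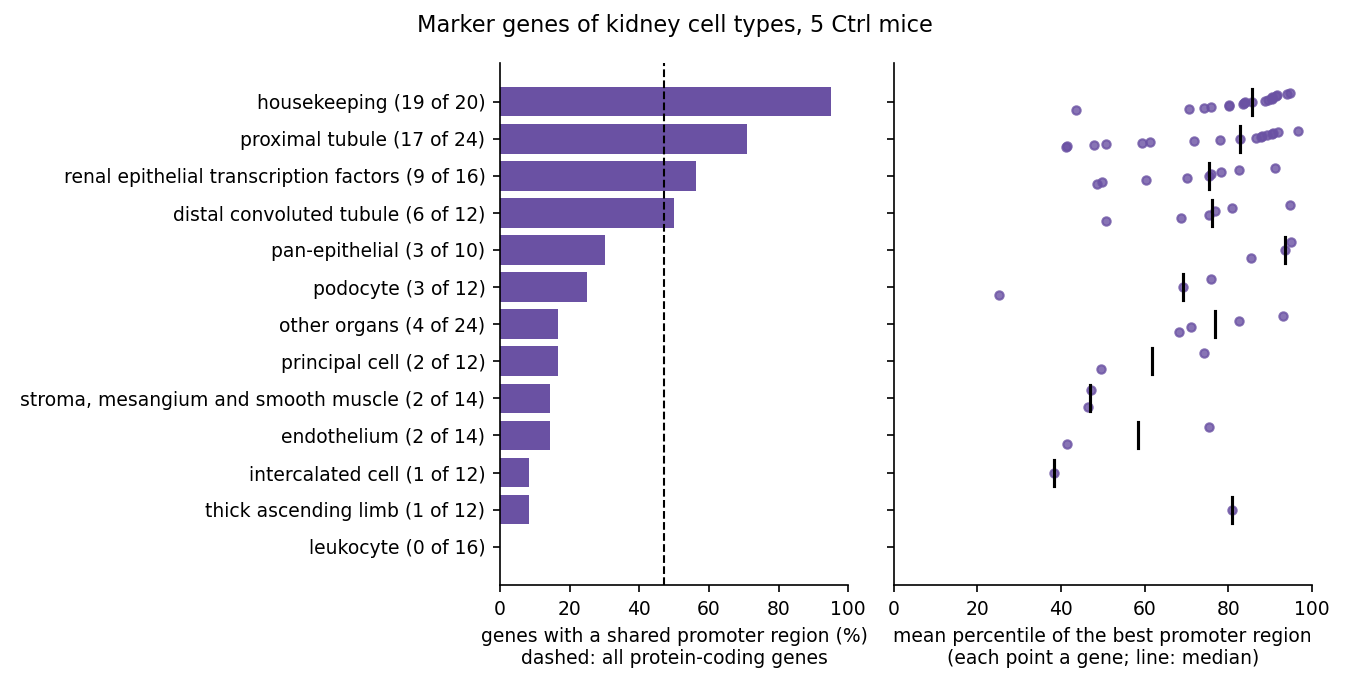
Left, percentage of the genes of each list with a promoter region shared by all 5 Ctrl mice, with the dashed line at 47.1% for all protein-coding genes. Right, mean percentile of the best shared promoter region of each gene (points) and the median of the list (black line). Proximal tubule genes lie above the dashed line, and the 17 points of that list run from 41.2 to 96.7.

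A promoter region can lie at any annotated start of a gene, and in 6 of the 17 proximal tubule genes it lay over 1 kb inside the gene. Of the genes described next, this holds for Slc6a19 (12236 bp from its outermost start), Egf (29912 bp), Slc12a3 (25091 bp), Trpv5 (1080 bp), Robo4 (11329 bp), Cela1 (8959 bp) and Eef1a1 (7222 bp).

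In the proximal tubule, the promoter of Slc6a19, the neutral amino acid transporter of the brush border, was the strongest, with percentiles of 96.7, 96.3, 96.2, 98.6 and 95.7 in Ctrl 1 to Ctrl 5 (mean 96.7 ± 1.15, SD, n = 5). The water channel gene Aqp1 had 95.9, 96.3, 91.0, 87.0 and 89.8 (92.0 ± 4.02). Fbp1, an enzyme of gluconeogenesis, had 93.3, 91.8, 93.0, 87.1 and 88.6 (90.8 ± 2.76). These promoters were high in all 5 mice, whereas those at the low end varied widely. The glucose transporter gene Slc5a1 (SGLT1) had 24.9, 16.6, 45.3, 64.3 and 56.4 (41.5 ± 20.3). Slc3a1, part of the cystine transporter, had 76.3, 46.6, 51.8, 21.9 and 9.32 (41.2 ± 26.3). Over the list the median was 82.8, beside 85.0 over all coding genes with a shared promoter region, so the share of the list lay above that of coding genes at large and its median below. For genes, deciles were taken over all 18758 shared regions, multi-copy ones included. Of the 24 genes 1 reached the strongest decile (4.17%, beside 8.51% of all coding genes), and 6 lay in the 3 weakest deciles (beside 6.64%).

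The proximal tubule genes without a shared promoter region included Slc5a2, Slc13a3, Slc7a13, Slc22a7, Slc22a8 and Kap. Slc5a2, which encodes SGLT2, the target of dapagliflozin, lies at chr7:128265657-128272430 and did have summits within 1 kb of a start in every mouse. They fell into adjacent regions that did not merge. The first, at chr7:128265583, was absent in Ctrl 5 and had percentiles of 67.0, 60.5, 37.3 and 58.3 in the others. The second, at chr7:128266274, was absent in Ctrl 3 and had 28.8, 75.6, 61.5 and 64.2 in the others. Each was therefore counted in 4 mice, with percentiles from 28.8 to 75.6. Kap had a summit in 3 mice and Slc22a7 in 4.

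The strongest promoters of the distal convoluted tubule were those of Cnnm2, a magnesium transport protein (94.7 ± 1.12, SD, n = 5), Wnk4, a kinase that controls salt transport (80.8 ± 6.07), and Slc12a3, the thiazide-sensitive sodium chloride cotransporter (76.8 ± 5.80). Stk39, the kinase that acts on it, was lower (68.7 ± 22.8), and the calcium channel gene Trpv5 lowest (50.8 ± 16.6). In the thick ascending limb, Egf had a shared promoter region, with percentiles of 90.5, 88.2, 78.4, 81.8 and 65.8. Of the genes that define this segment, Umod had a summit in 3 of the 5 mice and Slc12a1, the furosemide-sensitive cotransporter, in none. Podocyte genes were led by Magi2, a scaffold of the slit diaphragm (75.8 ± 8.15, SD, n = 5). The podocyte factor Wt1 was low, with 21.4, 29.6, 23.9, 50.6 and 0.723, and the slit diaphragm gene Nphs1 had a summit in 2 mice.

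In the collecting duct, Scnn1g, a subunit of the epithelial sodium channel, had a mean percentile of 74.2 ± 15.1 (SD, n = 5) and Fxyd4, which regulates the sodium pump, 49.5 ± 9.34. Rhbg, an ammonium transporter gene, was the sole intercalated cell gene, at 38.4 ± 13.1. Endothelium was represented by Ehd3, a gene of glomerular capillaries (75.5 ± 12.5), and Robo4 (41.4 ± 18.6), and stroma by the mesangial integrin gene Itga8 (47.2 ± 4.59) and the pericyte gene Cspg4 (46.5 ± 14.1). The genes of other organs with a shared promoter region were Ryr2, the calcium release channel of heart (93.2 ± 2.94), Ckm of muscle (82.7 ± 3.20), Mbp of myelin (71.1 ± 15.9) and Cela1 of pancreas (68.3 ± 6.80).

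Of 16 renal epithelial transcription factor genes 9 had a shared promoter region (56.2%, beside 47.1% of all coding genes, and from 37.5% with an extension of 100 bp to 75% with regions in at least 4 mice). Tfcp2l1, a factor of distal tubule and collecting duct, was the strongest (91.3 ± 2.86, SD, n = 5), followed by Pax8 (82.6 ± 9.52) and Hnf4g (78.2 ± 6.31). The lowest were Sim1, with 61.6, 74.1, 0.845, 50.6 and 61.6, and Pax2 (48.6 ± 15.7). Those without one included Esrrg, Pou3f3, Tfap2b, Ehf, Irx1 and Grhl2. Esrrg had summits near a start in all 5 mice, in several regions of at most 4 mice each, as for Slc5a2. Among 10 pan-epithelial genes 3 had a shared promoter region (30%, below the share of all coding genes), with Elf3 at 95.1 ± 2.68, the kidney cadherin gene Cdh16 at 93.5 ± 1.52 and E-cadherin (Cdh1) at 85.5 ± 8.47, close to the median of 85.0 over all coding genes with such a region. Housekeeping genes were led by Pgk1 (94.8 ± 4.13), Vcp (94.0 ± 2.37) and Eef1a1 (91.6 ± 4.50). Sdha was among the lowest (70.6 ± 10.0), and Gusb had a summit in 3 mice.

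Gene families, chosen after the ranking had been seen, were described in the same way. Shared promoter regions were found for 72 of 80 cytosolic ribosomal protein genes (median percentile 84.8), 71 of 84 nuclear-encoded subunits of the respiratory chain (89.7) and 33 of 39 proteasome subunits (86.6). Of the respiratory chain genes 19% had their best region in the strongest decile of all 18758 shared regions, beside 8.51% of all coding genes. Both shares count genes without a shared promoter region too, and 84.5% and 47.1% had such a region, so they differ partly for that reason. The share in the strongest decile was 11.2% for cytosolic ribosomal proteins, 12.8% for proteasome subunits and 14.1% for mitochondrial ribosomal proteins. Solute carriers, the transporter families of which many serve the nephron, had 198 of 369 (53.7%, beside 47.1% of all coding genes, median percentile 79.6). Below the share of all coding genes were 3 of 23 claudin genes (13.0%), 4 of 43 UDP-glucuronosyltransferase and sulfotransferase genes (9.30%), 20 of 99 cytochrome P450 genes (20.2%), 24 of 76 core histone genes and 9 of 39 Hox genes. Of 1093 olfactory receptor genes none had one, and 1 did of 327 vomeronasal receptor genes, of 49 keratin genes and of 64 defensin genes.

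Distal regions were tied to genes by the nearest coding transcription start, which does not show what a region controls. Over all coding genes, 21.8% were the nearest gene of a shared distal region. Of the proximal tubule list 15 of 24 genes were (62.5%), with 35 regions, and of the transcription factor list 12 of 16 (75%), also with 35 regions. The leukocyte list had 2 of 16 and the housekeeping list 4 of 20. The distal convoluted tubule list had 5 of 12 (41.7%), the pan-epithelial list 5 of 10 (50%), the podocyte list 4 of 12 (33.3%) and the stroma, mesangium and smooth muscle list 4 of 14 (28.6%). The thick ascending limb, principal cell and intercalated cell lists had 3 of 12 each and the list of other organs 6 of 24, all 25%, and the endothelium list had 2 of 14 (14.3%). The lists at 25%, that of other organs included, lay close to the 21.8% of all coding genes. The proximal tubule, transcription factor, pan-epithelial and distal convoluted tubule lists lay farther above it. The podocyte and stroma lists lay above it and the leukocyte, endothelium and housekeeping lists below it. In lists this short these are differences of very few genes, and nothing is read from them.

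Slc4a4, the basolateral sodium bicarbonate cotransporter of the proximal tubule, had a distal region with a mean percentile of 92.9, whose sequence is given above. In the kidney lists it was passed by a multi-copy region alone, in an intron of the endothelial receptor gene Flt1, at 99.6. The best distal region near Fbp1 had 92.1 and that near Slc34a1, the phosphate transporter of the brush border, 90.1. Slc22a6, the organic anion transporter, had 88.1 and Cldn10, a claudin of the thick ascending limb, 89.1. Esrrg, which had no shared promoter region, was the nearest gene of 10 shared distal regions, the best at 86.4. Away from kidney lists, the strongest single-copy distal regions that aligned nowhere else lay near Gm18604 at chr17:36231512 (mean percentile 99.9), Ccne1 at chr7:38085029 (99.3) and Zfp869 at chr8:69717061 (99.1), named after their values had been seen.

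Percentiles were more alike between mice at promoters than elsewhere. Spearman's rho of the percentiles between pairs of mice, across regions, ran from 0.764 to 0.823 at promoters and from 0.483 to 0.615 at distal regions. Regions are not independent replicates, and all regions come from the same 5 lists. The median SD over mice was 1.43 percentile points in the strongest decile of single-copy regions and 18.4 in the weakest, which the ranking itself sets in part, since a mean near 100 leaves no room for spread. To see strength in a mouse that had no part in the choice, regions of 4 Ctrl mice were ranked and looked up in the fifth. Of their strongest decile, 99.9% to 100% had a summit in the mouse left out, at a median percentile of 96.9 to 98.1. Of their weakest decile, 60.7% to 85.6% did, lowest in Ctrl 5 and highest in Ctrl 2, which have the shortest and the longest list.

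The last question was whether the regions shared by healthy mice were also found in diabetic mice. Since a region chosen for its presence in every Ctrl mouse is bound to be rarer elsewhere, each Ctrl mouse was scored on the 16275 to 17358 regions of the 4 other Ctrl mice, and the db/db mice on the same regions. The 29702 summits with the highest scores were used from each list, as many as the shortest list held. Held-out Ctrl mice had a summit in 95.9%, 95%, 96.7%, 90.7% and 93.3% of the regions (mean 94.3 ± 2.41%, SD, n = 5). Case mice had one in 88.3%, 78.8%, 66.2%, 79.5%, 91.5% and 88.7% (82.2 ± 9.39%, n = 6), lower by 12.2 percentage points. Dapa mice had a mean of 86.9 ± 3.41% (range 83.4% to 91.0%, n = 6), lower than Ctrl by 7.47 points. The highest db/db mice overlapped with the lowest Ctrl mouse.

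**Figure D5:**
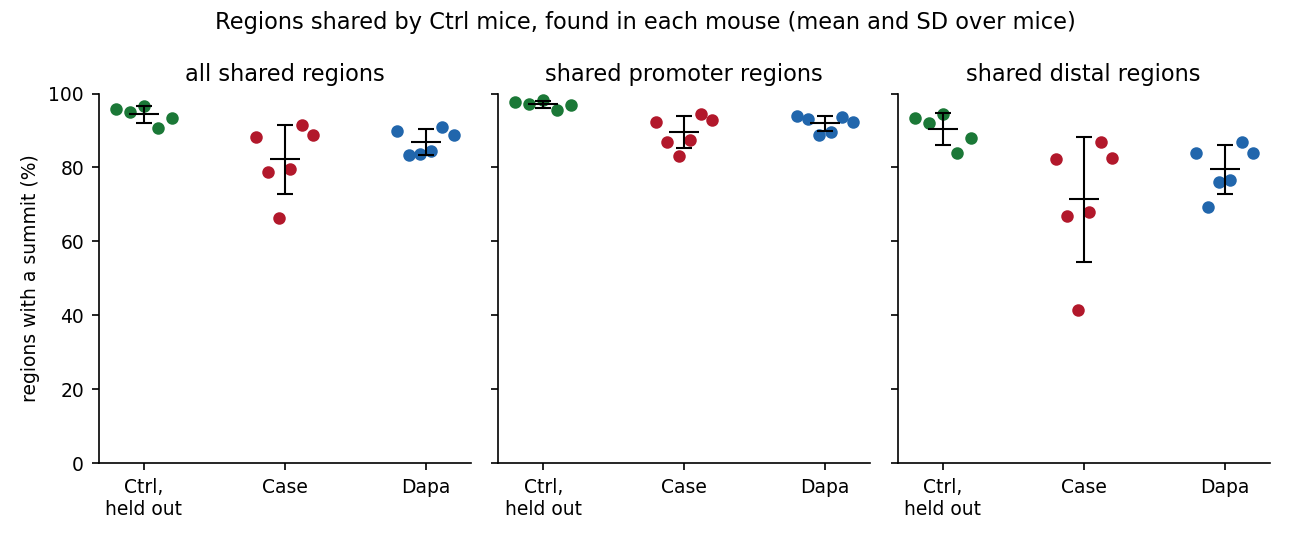
Percentage of the regions shared by 4 Ctrl mice that had a summit in the held-out Ctrl mouse and in each Case and Dapa mouse, for all, promoter and distal regions, with a point per mouse and bars for mean and SD. Distal regions run from 84.0% to 94.5% in Ctrl mice and from 41.4% to 87.0% in Case mice.

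Promoters and distal regions were then scored apart. At promoters, held-out Ctrl mice had 97.1 ± 0.989% (SD, n = 5), Case mice 89.6 ± 4.36% (n = 6) and Dapa mice 91.9 ± 2.13% (n = 6), and no db/db mouse reached the lowest Ctrl mouse at 95.6%. At distal regions Ctrl mice had 90.3 ± 4.33%, Case mice 71.4 ± 16.9% and Dapa mice 79.5 ± 6.62%, with Case 3 far below the rest at 41.4%. The differences at promoters were 7.53 points for Case and 5.20 for Dapa, and those at distal regions 18.9 and 10.8. For each relabelling of the mice the regions were chosen anew from the mice then labelled Ctrl. Each of the 6 differences was larger than in every other relabelling (exact permutation test, 2-sided, p = 0.00216, the smallest that 462 relabellings allow, and 0.00216 after Benjamini-Hochberg adjustment over the 6 tests). Whether promoter and distal gaps differ, and whether Case and Dapa differ, was not tested, and both comparisons share the Ctrl mice.

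Strain, the Lepr mutation and diabetes cannot be told apart here, because Ctrl mice are C57BL/6 and db/db mice are of another strain. Other values moved with the groups, and their part was not tested: within the equal-length lists the promoter share was 43.7% to 44.3% in Ctrl, 39.8% to 43.6% in Case and 40.0% to 43.8% in Dapa mice, and the median score 6.72 to 9.98, 4.84 to 8.84 and 5.89 to 7.82. Full lists held 37402 to 56659 summits in Ctrl, 29702 to 51292 in Case and 32846 to 49442 in Dapa mice. The comparison used lists of equal length. With all summits of every list, the differences over all regions were 14.5 points for Case and 8.51 for Dapa. The part of whatever set the full lengths was not tested. Case 2, Case 3 and Case 4, the lowest over all regions, had the shortest lists (31176, 29845 and 29702 summits). By strength, 98.3% of the strongest decile of the single-copy shared regions had a summit in all 12 db/db mice and 2.69% of the weakest decile did, counted over complete lists and as a description only.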

How the data were processed

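Kidney cells of 5 Ctrl, 6 Case and 6 Dapa mice, grouped by the sample labels, were profiled by ATAC-seq. The authors aligned reads to mm10 (Bowtie2, ENCODE pipeline), discarded duplicates and reads in blacklisted regions, shifted reads for the transposase and called peaks with MACS2 in each library (versions not given in the sources used here). The deposited scores are −log10 values of MACS2's p or q, with no statement of which. Such scores depend on sequencing depth, so they were ranked only within a list. Read totals were not used here, so no counting error can be given. Chromosomes 1 to 19, X and Y were used.

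A region's position was the lower median of the best summits of its mice. Classes came from the GENCODE annotation of mm10 (55413 genes), with a promoter within 1 kb of a start. Copies were counted over the primary assembly, and blastn 2.17.0 (e-value limit 1e-10) compared regions with the genome. Python 3.11.15, numpy 2.4.6, pandas 2.3.3 and scipy 1.17.1 were used, and the permutation test was checked on simulated lists. Regions, the 13 marker lists (198 genes), families and tests were chosen with earlier results of these data known. Named are the 10 strongest and 10 weakest regions, the 5 strongest intronic or intergenic ones, in each list the 3 genes with the strongest and the 2 with the weakest shared promoter region, genes without one in lists where most have one, and Slc5a2. Permutation p-values measure the spread between these mice. Alternatives were other extensions (100 or 500 bp), list lengths, a minimum score of 5, regions of at least 4 mice, autosomes, promoters within 3 kb, wider gene windows, median percentile or mean score as strength, same-numbered mice as pairs, each mouse left out, and, added after seeing the data, single-copy regions only. Some genes, sequences and motifs that the naming rule covers are not reported here.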

Additional observations from a re-analysis of the deposited data

Results flagged for a closer look

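In 3 of 76 sets of values, each over the mice of 1 group, a single mouse stood apart from the rest, where chance gives about 1 in 20. All of them concern Ctrl 4. The promoter of the housekeeping gene Pgk1 had a percentile of 87.6 in Ctrl 4, and the nearest other Ctrl mouse had 95.5. Of the renal epithelial transcription factor genes, 68.8% had a promoter summit in Ctrl 4, against 75% in each of the other 4. Of the endothelium genes, 14.3% had one in Ctrl 4, against 21.4% in each of the other 4. Both of these are differences of 1 gene, and only the ties among the other mice set Ctrl 4 apart.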

How the results depend on the processing

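All 103 alternative values of the 6 db/db comparisons kept their direction and stayed under the threshold of 0.05. Over these, the Case difference ran from 8.97 to 14.9 points for all regions, 6.25 to 9.20 for promoters and 13.0 to 22.7 for distal regions, and the Dapa difference from 6.78 to 10.0, 4.61 to 6.75 and 8.65 to 14.7. Replicate numbers did not pair the mice (correlations of −0.0648 to 0.0168 between same-numbered Ctrl and Case mice, and 1 of 5 Ctrl mice closest to its own number). With the replicate block, the Case differences of 12.2, 7.53 and 18.9 points each had p = 0.0312 by the exact permutation test, the smallest that 32 relabellings allow.

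The promoter share of the shared regions (56.8%) was 63.7% with scores of at least 5, 49.4% for regions of at least 4 mice, 64.4% with promoters within 3 kb, 60.2% for single-copy regions and 53.5% to 56.1% with a mouse left out. For the strongest decile (86.9%) it was 85.3% with scores of at least 5, 87.7% on autosomes, 88.2% within 3 kb, 86.4% by the median percentile, 86.5% by the mean score, 96.0% for single-copy regions and 86.4% to 86.8% with a mouse left out. For the weakest decile (33.3%) it was 36.1% with lists of equal length, 31.8% with an extension of 500 bp, 39.5% with scores of at least 5, 29.5% for regions of at least 4 mice, 44.9% within 3 kb, 38.2% for single-copy regions and 29.5% to 33.6% with a mouse left out. The number of shared regions stayed within 1.5 times, from 14186 to 25154. The proximal tubule share (70.8%) was 54.2% with an extension of 100 bp or scores of at least 5, 79.2% for regions of at least 4 mice or within 3 kb, and 87.5% from 2 kb upstream to the end of the gene. In all 12 alternatives the 5 other segment lists stayed below it, but from 2 kb upstream to the end of the gene only narrowly: the distal convoluted tubule list went from 50% to 83.3%. Over the alternatives the lists ran from 33.3% to 83.3% (distal convoluted tubule), 16.7% to 50% (podocyte), 8.33% to 33.3% (thick ascending limb), 8.33% to 25% (principal cell), 0% to 16.7% (intercalated cell), 7.14% to 21.4% (endothelium, and stroma), 0% to 18.8% (leukocyte), 30% to 50% (pan-epithelial), 12.5% to 25% (other organs) and 75% to 95% (housekeeping). Of 156 values of the 13 marker lists 37 moved by more than the spread between mice, 5 of them with a mouse left out. That spread was the SD over single mice of the share of genes with a promoter summit in that mouse. It is another measure than the share with a region in all 5 mice, so it serves as a rough scale only. The causes of these shifts were not tested.

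Scores depend on an unknown depth, so an absent summit in a mouse does not show closed chromatin. Nearby summits can fall into neighbouring regions, as at Slc5a2, which the extension of 250 bp does not always join. Whether such regions are 1 open stretch was not tested.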
